A study of Saccharomyces cerevisiae with 10 samples.

Results

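NUTs are noncoding transcripts of budding yeast, Saccharomyces cerevisiae, that were named for their appearance when Nrd1 is removed from the nucleus. The deposited table holds 1526 rows whose names start with NUT. Of these, 1238 reached a mean normalized density of 0.034 over the 10 libraries, and 722 of the 1238 rose less than 4-fold in the deposited means when the exonuclease Xrn1 was absent. These 722 rows are the members described here, and the other 516 rows rose 4-fold or more. The members were chosen by their ratio of xrn1 to WT, with 0.006 added to both means, so that ratio is given below only as a description. A density is reads per base of the row, divided by a factor per library that follows the ERCC spike-in RNAs, and has no absolute unit.

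The 5 groups of 2 biological replicates each were measured by stranded sequencing of total RNA depleted of ribosomal RNA. WT, xrn1 and dbp2 are labelled BY4741, all MATa with ura3Δ0 and leu2Δ0. WT and xrn1 also carry met15Δ0 and his3Δ1, and xrn1 adds xrn1Δ::kanMX4. The dbp2 label instead gives his3Δ0, "met-" and "lys?" with dbp2Δ::KanMX6. WT-Dox and tet-MTR4-Dox are BMA64-1A, MATa, and share the alleles can1-100, ura3-1, trp1Δ2, his3-11,15 and ade2-1 and the double allele of leu2-3 and leu2-112. Both were kept for 6 hours in doxycycline at 10 µg/mL, which shuts off MTR4 in tet-MTR4-Dox through its kanMX6-tetOFF promoter. Every culture grew in YPD at 30 °C to an OD600 of 0.5. The labels do not say whether each strain was 1 clone.

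Nrd1 and Nab3 are RNA-binding proteins that, with the helicase Sen1, end transcription of short noncoding RNAs and of small nucleolar RNAs (snoRNAs). They hand the RNA to TRAMP, a complex that contains the helicase Mtr4, and to the nuclear exosome, which trims snoRNA precursors and degrades most other products. Xrn1 degrades RNA in the cytoplasm from its 5' end, and Dbp2 is a DEAD-box helicase that acts on nascent RNA. A NUT row can therefore hold a stable RNA as well as an unstable one: the reads of 25 members were almost all those of a snoRNA row in WT and WT-Dox.

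The 4 sequences that follow lie immediately past the 3' end of the 4 snoRNAs around which NUT reads rose most after Mtr4 shut-off when 1 snoRNA is taken off each row (values below). Each is the 150 bases after the RefSeq snoRNA on its own strand in R64, at chrXII:199390-199539 (plus strand) for snR30 in NUT0490 and chrXIII:652533-652682 (plus) for snR11 in NUT0607. The other windows are chrX:227944-228093 (minus) for snR37 in NUT1169 and chrXVI:821904-822053 (plus) for snR45 in NUT0805. Capitals mark GTAG and GTAA, short motifs known to be bound by Nrd1, and TCTT and CTTG, motifs known to be bound by Nab3. Only the strand of the snoRNA was searched, and matches may overlap one another.
snR30: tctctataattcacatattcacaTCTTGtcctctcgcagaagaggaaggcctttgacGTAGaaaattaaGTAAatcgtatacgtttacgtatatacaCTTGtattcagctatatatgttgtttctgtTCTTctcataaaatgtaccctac
snR11: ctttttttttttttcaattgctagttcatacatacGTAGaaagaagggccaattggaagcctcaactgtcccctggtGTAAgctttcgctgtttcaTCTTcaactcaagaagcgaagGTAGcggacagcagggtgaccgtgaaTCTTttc
snR37: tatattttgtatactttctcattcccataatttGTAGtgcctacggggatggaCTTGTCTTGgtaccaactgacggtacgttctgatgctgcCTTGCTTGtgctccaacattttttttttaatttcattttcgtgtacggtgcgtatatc
snR45: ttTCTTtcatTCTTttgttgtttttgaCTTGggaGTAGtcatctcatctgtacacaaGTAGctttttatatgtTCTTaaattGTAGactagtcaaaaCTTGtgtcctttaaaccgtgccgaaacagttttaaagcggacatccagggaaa
At least 1 Nrd1 motif and at least 1 Nab3 motif were found in 20 of the 25 windows past the snoRNAs held by members (80.0%). The same was true of 62.7% of 51 windows past other RefSeq snoRNA genes and of 48.5% of 6002 windows past protein-coding genes. The median window held 2 Nrd1 and 3 Nab3 motifs at the 25 snoRNAs, against 1 and 3 at the other snoRNA genes and 1 and 1 at the protein-coding genes. The other snoRNA genes were not matched to the 25 by how they are transcribed. The window past snR190 (chrX:139611-139760) runs into snR128 (139566 to 139691). These are matches of letters. The positions of NUT rows were not in the files used here, so where in these rows the added reads lie was not read.

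The libraries held 15971468 to 33521600 reads on rows, of which 1.35% to 3.14% were ERCC reads. The targeted genes followed the labels. XRN1 densities were 2.49 and 2.28 in WT against 0.102 and 0.106 in xrn1, and DBP2 densities were 3.49 and 3.41 in WT against 0.00313 and 0.00326 in dbp2. MTR4 fell from 1.49 and 1.30 in WT-Dox to 0.429 and 0.469 in tet-MTR4-Dox. LYS2 was at 1.10 and 0.999 in WT and at 0.000502 and 0.000349 in dbp2, and MET17 was at 0.00125 and 0.000477 in WT and at 1.75 and 1.64 in dbp2, although that label reads "met-". The dbp2 strain thus differed from its control at more than DBP2. TRP1, deleted in BMA64-1A by its label, had 0 and 0.000690 (WT-Dox) but 0.129 and 0.128 (tet-MTR4-Dox), so these strains also differed at TRP1. The median protein-coding gene lay 0.86 (tet-MTR4-Dox), 0.85 (dbp2) and 2.07 (xrn1) log2 units above its control on the spike-in scale. "Rescaled" values below come from the same test after each library was set to its median protein-coding gene. The amount of spike-in per cell is not given in the sources used here, so a different number of cells and a different amount of RNA per cell cannot be told apart.

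In the control libraries the members were scarce. The median member had a density of 0.0134 and 0.0132 in WT and of 0.0116 and 0.0113 in WT-Dox, or 15 to 24 reads per library. For dbp2 libraries the median was 0.0336 and 0.0307, and in xrn1 it was 0.0423 and 0.0407. In tet-MTR4-Dox it was 0.279 and 0.261, or 263.5 and 346 reads. The order over groups was thus tet-MTR4-Dox, then xrn1, dbp2, WT and WT-Dox, with no overlap between the replicate medians of neighbouring groups. Members took 4.12% to 4.52% of yeast reads in the 4 control libraries and 2.08% and 2.2% in xrn1. They took 7.09% and 7.40% in dbp2, and 10.1% and 11.0% in tet-MTR4-Dox. These shares include the snoRNA reads of the 25 members that hold a snoRNA, so they do not measure NUT reads alone. In WT-1, NUT1162, which holds snR190, had 134689 reads, where the median member had 19. Only 131 members reached 0.034 in WT-Dox by themselves and 141 did in WT, whereas 720 did in tet-MTR4-Dox.

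**Figure D1:**
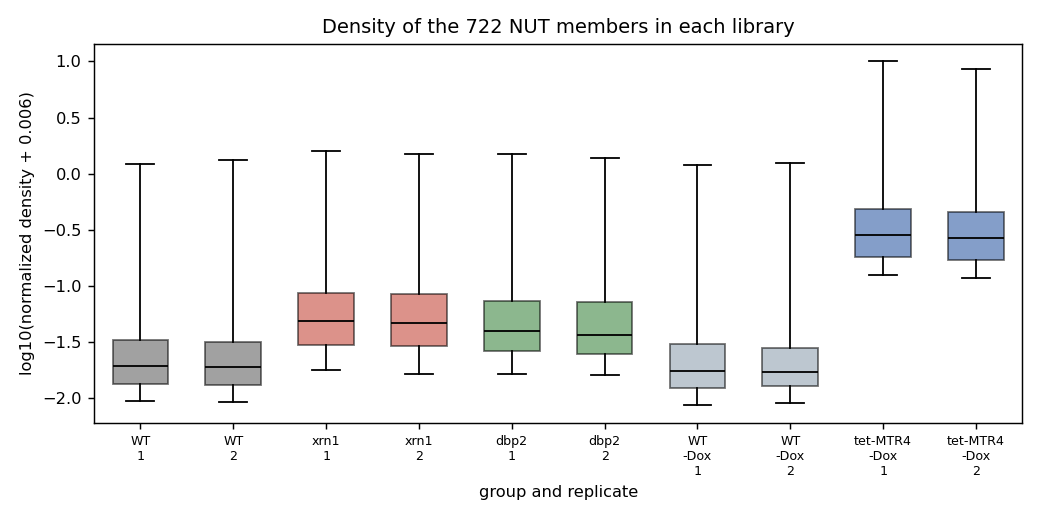
Box plots of log10(normalized density + 0.006) of the 722 NUT members in each of the 10 libraries, by group and replicate. Boxes span the quartiles with the median as a line, and whiskers the 5th to 95th percentiles. The replicate medians of tet-MTR4-Dox (0.279 and 0.261) lie above those of every other group.

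Shut-off of Mtr4 raised the members by a median of 14.9-fold (log2 3.895, 3.84 to 3.96 over the pairs of replicates), against a median of log2 1.36 for all 9680 rows tested. By limma with Benjamini-Hochberg adjusted p under 0.05, 722 of 722 members were called higher and 0 lower, where 91.3% of all rows tested were called higher and 3.26% lower. At an unadjusted limma p under 0.05 the count of lower members is also 0, since each member's fold change was above 0. The 2 tet-MTR4-Dox libraries lay above both WT-Dox libraries in 722 members and below both in 0, against 92.7% and 3.85% of all rows. However, 458 members reached the level limit of the rule only through tet-MTR4-Dox and so had to be high there, and the count over all members is not used as support. Of the 264 members that reach 0.034 over the other 8 libraries, 264 were called higher (median log2 3.05, share over such rows not computed). Of the 131 that reach it in WT-Dox alone, 131 were called higher with a median of 4.47-fold (log2 2.16), where 87.3% of rows with such a control level were called higher and 4.99% lower.

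Relative to the median protein-coding gene, 703 members were higher and 7 lower, against 62.1% and 24.7% of all rows, and the median log2 was 3.38. In the 131 members with a WT-Dox mean of at least 0.034 the rescaled counts were 113 higher and 7 lower, against 43.7% and 37.7% of rows of that control level, with a median log2 of 1.33. The 516 NUT rows left out by the ratio had a median log2 change of 3.26 with Mtr4 shut off on the spike-in scale. CUTs, short RNAs known as nuclear exosome substrates, had 4.33, and XUTs, named for their sensitivity to Xrn1, had 2.82. The highest group mean was in tet-MTR4-Dox for 685 of 722 members, in xrn1 for 21 and in dbp2 for 16. Among the other 516 NUT rows it was in tet-MTR4-Dox for 313 and in xrn1 for 196. The ratio used for the choice favours this difference, and so does the level limit, which 458 members reached only through tet-MTR4-Dox. The median changes of the members and of these 516 rows carry the same limit. These differences were not tested and are not used as support. No share over all rows was computed for the highest group mean.

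**Figure D2:**
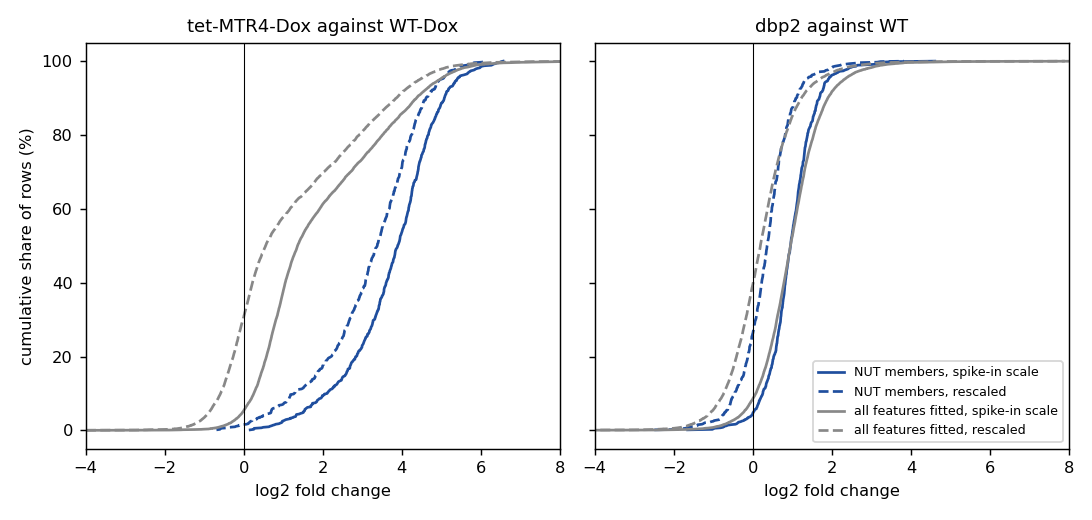
Cumulative share of rows (%) against log2 fold change, left for tet-MTR4-Dox against WT-Dox and right for dbp2 against WT, for the 722 NUT members (blue) and all 9680 rows tested (grey). Solid lines are on the spike-in scale and dashed lines are rescaled on the median protein-coding gene. On the left the members' median (3.895) lies right of that of all rows (1.36), and on the right both are at 0.95.

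The rise varied among members from log2 0.16 to 6.56, with quartiles of 3.09 and 4.52. Shorter rows had somewhat larger changes, but 458 of the 722 members reached the level limit only through tet-MTR4-Dox. This trend was not computed without them, was not tested and is not used as support. The median log2 was 4.14 in the 241 rows of 112 to 991 bases, 3.84 in the 240 rows of 996 to 1746 bases and 3.69 in the 241 longer rows (Spearman's rho -0.15 between length and change over the 722 rows, which share libraries). By the ratio that chose them, the 39 members below 1 had a median log2 change of 2.03 with Mtr4 shut off, the 221 from 1 to 2 had 4.24, the 256 from 2 to 3 had 3.95, and the 206 from 3 to 4 had 3.62. The level limit can favour large changes at low ratios, since 458 members reached it only through tet-MTR4-Dox. The order of these classes was not tested and is not used as support. Of the 39 members below 1, 23 held a snoRNA by a search that took 1 snoRNA row at a time. NUT1510, whose control reads lay close to the sum of several snoRNA rows, was not counted. The median WT-Dox density of these 39 members, 4.42, was far above that of the other classes (0.0102 to 0.0123).

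The 25 snoRNA-holding members lie at snoRNAs of 2 kinds. By the RefSeq notes, 20 are H/ACA snoRNAs, a class best known for guiding pseudouridylation, and 5 are C/D snoRNAs, a class best known for guiding 2'-O-methylation. They were recognised by rows in which at most 10% of the reads in each control library lay outside a snoRNA row, so the reads outside were low in the controls by choice. None of the 516 other NUT rows met this. The reads outside the snoRNA are called the rest of the row. Reads that touch the snoRNA are counted in the snoRNA row and are not part of the rest, which therefore misses the parts of an extended RNA that overlap the snoRNA.

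After Mtr4 shut-off the rest rose more than the snoRNA at the median. The rest was higher in tet-MTR4-Dox in 25 of 25 rows by limma, with a median of 72.9-fold (log2 6.19), and in 25 of 25 after rescaling (median log2 5.61), where 91.3% and 62.1% of all rows were higher. The rests were chosen as low in WT-Dox, the control of this test, while all rows were not. The counts are thus not used as support. The log2 changes of the rests ran from 3.78 to 8.54, apart from 3.61 at NUT1162, whose rest still holds a second snoRNA. The 25 snoRNA rows were also called higher on the spike-in scale, by a median of 2.94-fold (range 1.54 to 11.9). The rest took a median of 0.299% of the row's reads in WT-Dox and 10.3% in tet-MTR4-Dox, where it ranged from 0.984% to 42.8%. The whole rows of these members had a median rise of 3.33-fold. In NUT0426 the row rose 5.34-fold and its snoRNA, snR3, 3.09-fold, and in NUT0805 the row rose 5.20-fold and snR45 3.90-fold.

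The 6 densest members were 5 of these rows and NUT1342. NUT1169 had 70.98 and 67.2 (WT-Dox) and 216 and 189 (tet-MTR4-Dox), a 2.92-fold rise, and NUT0490 had 71.4 and 77.5 against 219 and 226, a 2.99-fold rise. NUT1162, NUT0255 and NUT0258 rose 3.61-, 3.64- and 4.08-fold. In each the groups did not overlap. The rises of NUT1169 and NUT0490 hold relative to the median protein-coding gene (log2 0.69 and 0.72) but turn to -0.18 and -0.14 relative to the median row.

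With 1 snoRNA taken off each row, the largest rise of a rest was at snR30 (NUT0490), an H/ACA RNA required for processing of the small-subunit ribosomal RNA. The rest had densities of 0.0311 and 0.0405 (WT-Dox, 14 and 23 reads) and of 16.1 and 14.9 (tet-MTR4-Dox, 5079 and 6529 reads). This was a 372-fold rise (log2 8.54 ± 0.14 SE), while snR30 itself went from 125 and 136 to 372 and 386, or 2.90-fold. The rest had 0.0465 and 0.0447 (WT), 0.0608 and 0.0464 (xrn1) and 0.106 and 0.108 (dbp2), so the tet-MTR4-Dox libraries stood alone.

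The rest at snR11 (NUT0607) went from 0.0240 and 0.0242 in WT-Dox to 7.86 and 7.96 in tet-MTR4-Dox, a 263-fold rise, and took 20.8% of the row's reads there. At snR37 (NUT1169), the densest member, it went from 0.0198 and 0.0254 to 6.98 and 6.41, a 235-fold rise. At snR45 (NUT0805), a C/D snoRNA that guides acetylation of ribosomal RNA, it went from 0.0502 and 0.0584 to 14.03 and 13.4, a 228-fold rise. In all 3 the groups did not overlap. No p is given for the rise of a single rest, since the rests were chosen as low in WT-Dox. These 3 snoRNAs and snR30 are the ones whose 3' flanks are printed above. Rests at snR3 (227-fold), snR10 (201-fold), snR32 (199.7-fold) and snR35 (169.6-fold), all H/ACA RNAs, followed.

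The smallest rise among rests that hold no second snoRNA found here was at the C/D snoRNA snR13 (NUT0167). Its rest rose 13.7-fold, from 0.206 and 0.198 to 2.89 and 2.80, while snR13 rose 11.9-fold, from 25.4 and 26.8 to 304 and 318. The rest at snR190 (NUT1162) rose 12.2-fold, but most of it in the controls was the reads of snR128, which lies next to snR190 on chromosome X (139566 to 139691 and 139761 to 139950). Once both rows are taken off, the reads left were 18 and 26 (WT-Dox) and 11782 and 15536 (tet-MTR4-Dox). Their densities were 0.00623 and 0.00713 (WT-Dox) and 5.798 and 5.52 (tet-MTR4-Dox), so the rise there was not small. The low place of NUT1162 among the rests thus depends on the snR128 reads left in its rest. With both rows taken off it was not ranked or tested with the others. The order of rises given above, with snR30 first, holds only for 1 snoRNA taken off each row. NUT1510 was looked at in the same way after its values were seen. Its reads differed from the sum of snR41, snR70 and snR51, neighbours on chromosome XVI, by -50 to -36 reads in WT-Dox and by 1467 and 1460 reads in tet-MTR4-Dox. NUT1510 is not among the 25 members, since their search took 1 snoRNA row at a time.

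**Figure D3:**
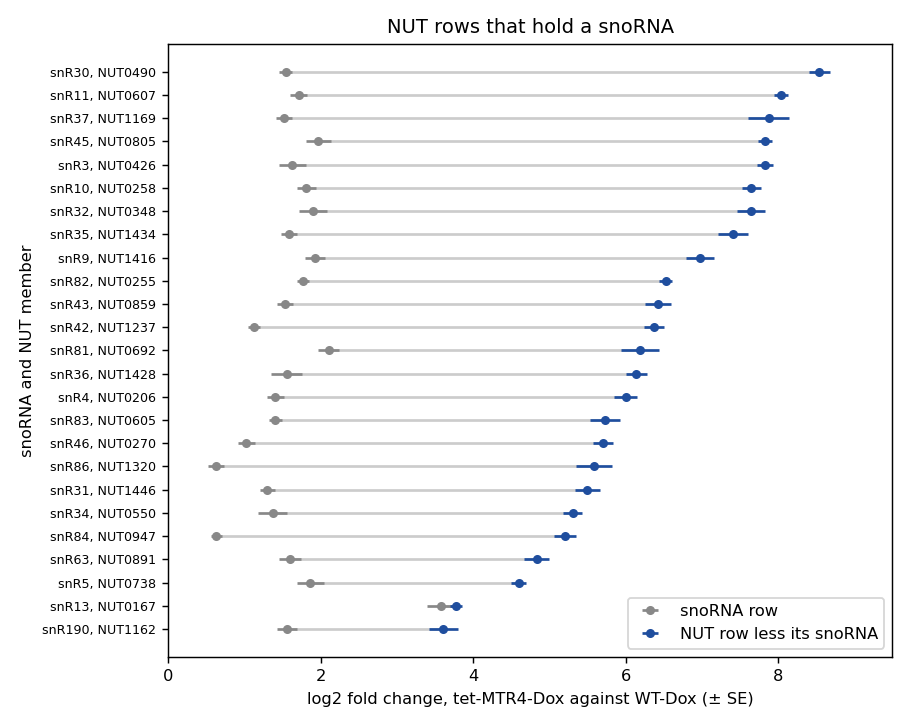
Log2 fold change (± SE) in tet-MTR4-Dox against WT-Dox for the 25 snoRNAs (grey) and for the NUT row less that snoRNA (blue), 1 line per pair, sorted by the latter. The blue point lies right of the grey one in each pair, with snR13 as the closest (3.78 against 3.57). The lowest blue point (3.61) is NUT1162, which still holds the reads of snR128.

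Loss of Dbp2 left these rests less changed. The rest was called higher in dbp2 in 24 of 25 rows on the spike-in scale (median log2 1.26), but after rescaling 16 were higher and 2 lower, against 84.8% of all rows higher and, rescaled, 43.3% higher and 28.7% lower. The 2 largest rises were at snR9 (5.23-fold) and snR35 (4.64-fold), both H/ACA RNAs, and the rest at snR86 had a log2 change of -0.30 ± 0.24 (limma adjusted p = 0.25). WT, the control here, was also used to choose the rests as low, so these counts are not used as support. The snoRNAs had a median rise of 1.82-fold in dbp2. In xrn1 the rest had a median ratio to WT of 1.62 (0.635 to 4.22), and 1 of the 25 was at 4 or more.

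Among members with a WT-Dox mean of at least 0.034, the largest rises after Mtr4 shut-off were in rows for which no snoRNA or gene row with equal reads was found. NUT0349 (2282 bases) had densities of 0.0821 and 0.0771 (WT-Dox) and of 8.39 and 7.01 (tet-MTR4-Dox), an 89.7-fold rise (log2 6.49 ± 0.10, limma adjusted p = 3.0e-11). Its other densities were 0.102 and 0.0999 (WT), 0.256 and 0.229 (xrn1) and 0.223 and 0.213 (dbp2), so each mutant lay above its own control. NUT1395 (371 bases) went from 0.126 and 0.137 in WT-Dox to 13.0 and 11.2 in tet-MTR4-Dox, an 87.5-fold rise. Its other densities were 0.180 and 0.156 (WT), 0.150 and 0.136 (xrn1) and 0.249 and 0.198 (dbp2). The dbp2 change was log2 0.39 ± 0.12 on the spike-in scale (limma adjusted p = 0.011) and turned to -0.43 after rescaling.

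NUT0013 rose 82.3-fold, from 0.109 and 0.131 in WT-Dox to 11.3 and 9.44, and NUT0275 rose 78.4-fold, from 0.0996 and 0.110 to 10.0 and 7.504. NUT1417 rose 76.9-fold and NUT0903 65.0-fold, the latter from 0.234 and 0.301 to 19.0 and 16.3. NUT1178, NUT0693, NUT1269 and NUT1492 rose 29.7- to 34.9-fold. In each of these 10 members the tet-MTR4-Dox libraries lay above all other 8 libraries, and the limma adjusted p-values were at most 9.9e-10. The 10 rises held after rescaling, with log2 changes of 4.09 to 5.69.

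**Figure D4:**
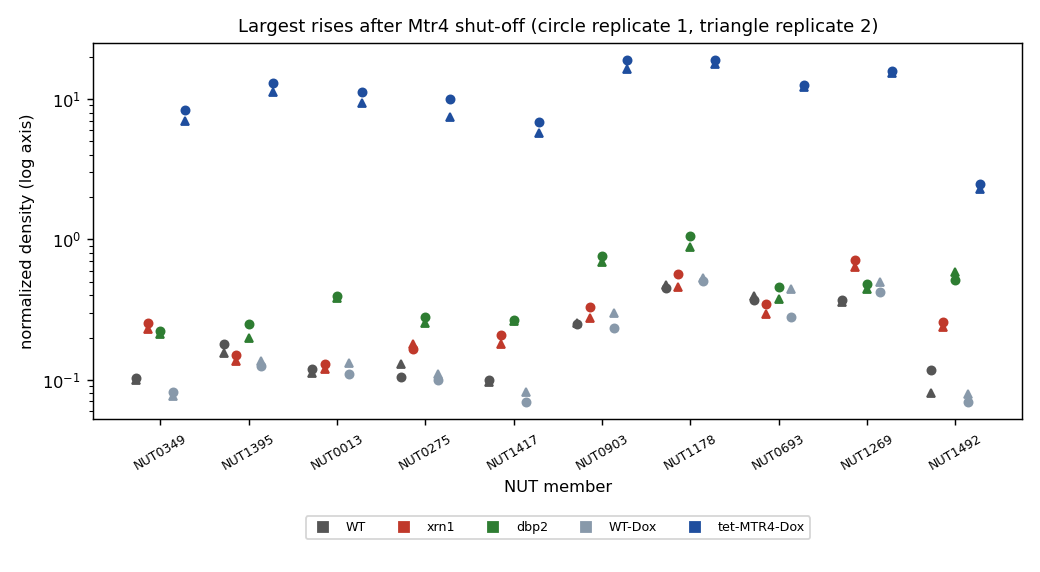
Normalized density (log axis) of the 10 members with the largest rise after Mtr4 shut-off among those with a WT-Dox mean of at least 0.034, in each of the 10 libraries. Circles are replicate 1 and triangles replicate 2, coloured by group. The tet-MTR4-Dox libraries lie above all others, from 2.27 (NUT1492) to 19.0 (NUT0903).

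In dbp2 the members had a median rise of 1.93-fold (log2 0.95, and 0.95 over all rows), and 616 were called higher, 16 lower and 90 neither by limma, where 84.8% and 5.31% of all rows were. Both dbp2 libraries lay above both WT libraries in 654 members and below them in 23, against 88.2% and 6.69% of rows. After rescaling, 295 were higher and 78 lower, against 43.3% and 28.7% of rows. The 141 members with a WT mean of at least 0.034 split into 116 higher and 12 lower, against 83.5% and 7.55% of such rows, but into 53 and 42 after rescaling (37.4% and 40.0%). The WT libraries of this comparison also chose the members through the ratio of xrn1 to WT.

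The largest rise in dbp2 was in NUT0034. This row of 1504 bases had 0.0598 and 0.0535 in WT and 1.60 and 1.43 in dbp2, a 24.2-fold rise (log2 4.60 ± 0.11, limma adjusted p = 8.6e-10). It was at 0.202 and 0.198 in xrn1 and rose from 0.0230 and 0.0182 to 0.831 and 0.853 with Mtr4 shut off, so both mutants lay far above their controls. NUT0608 rose 8.75-fold in dbp2, from 0.0692 and 0.0606 to 0.644 and 0.585. NUT1492 rose 5.32-fold, NUT1342 5.09-fold, NUT1429 3.94-fold, NUT1139 3.78-fold, NUT0894 3.74-fold and NUT0965 3.71-fold, and these 8 were also called higher after rescaling (log2 1.04 to 3.82). NUT1342 is one of the densest members, with 15.8 and 15.4 (WT), 81.5 and 77.5 (dbp2), 16.2 and 14.8 (WT-Dox) and 54.5 and 49.2 (tet-MTR4-Dox).

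The 16 members that fell in dbp2 rose with Mtr4 shut off on the spike-in scale, but so did all 722 members. Of all rows tested 91.3% were called higher there, so this rise is not particular to the 16. NUT1082 (550 bases) had 0.293 and 0.304 in WT and 0.106 and 0.0778 in dbp2, a change to 0.318 of its WT level (log2 -1.65 ± 0.17, limma adjusted p = 4.5e-06). It had 0.298 and 0.208 (WT-Dox) and 0.582 and 0.619 (tet-MTR4-Dox), a 2.37-fold rise. NUT0659 went from 1.04 and 1.06 to 0.538 and 0.492 in dbp2 and rose 2.27-fold with Mtr4 shut off. NUT0961, NUT0207, NUT0737 and NUT1354 had 0.500 to 0.591 of their WT level in dbp2. With Mtr4 shut off NUT0737 rose 5.15-fold, while NUT1354 rose 1.12-fold on the spike-in scale and was lower after rescaling (log2 -0.69), from 1.19 and 1.22 to 1.39 and 1.30.

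The difference between both responses was tested directly. The change was larger with Mtr4 shut off than without Dbp2 in 693 members and smaller in 7, by a median of 2.92 log2 units, where 52.2% and 15.3% of all rows passed in these directions. After rescaling it was larger in 694 and smaller in 8, against 54.2% and 17.4% of all rows. The 458 members that reached the level limit only through tet-MTR4-Dox had to lean this way, so the count over all members is not used as support. Of the 264 others, 236 had a larger change with Mtr4 shut off and 7 a smaller one, by a median of 2.12. The 2 comparisons share no library, but differ in strain and in doxycycline, and these cannot be told apart from the mutations. Of the 131 members with a WT-Dox mean of at least 0.034, 109 had a larger and 3 a smaller change, by a median of 1.51. No share over rows with such levels was computed for these 131 members or for the 264, so neither count can be set against one. Across members the changes were weakly related (Spearman's rho 0.17 over 722 rows of the same libraries). These rows include the 458, so the rho carries the same limit and is not used as support.

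NUT0942, NUT0517, NUT0620 and NUT1395 had the largest differences. In NUT1395, whose densities are given above, the log2 changes differed by 6.06 ± 0.17 (limma adjusted p = 6.4e-09). NUT0517 (1005 bases) had 0.0112 and 0.00883 (WT-Dox) and 1.08 and 0.938 (tet-MTR4-Dox), against 0.00645 and 0.00632 (WT) and 0.00547 and 0.00989 (dbp2). NUT0517 and NUT0942 reached the level limit only through tet-MTR4-Dox, so no p is given for them. At the other end, NUT1103 (2657 bases) had 0.00349 and 0.00319 in WT (10 and 12 reads) and 0.115 and 0.0918 in dbp2, an 11.7-fold rise, but 0.00614 and 0.00516 (WT-Dox) and 0.0272 and 0.0287 (tet-MTR4-Dox), a 2.92-fold rise. NUT1414, NUT0493 and NUT0864 also changed more in dbp2, by 1.48, 0.91 and 0.89 log2 units. The other 3 of the 7, named here after their values were seen, are NUT1342, NUT0318 and NUT1051.

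**Figure D5:**
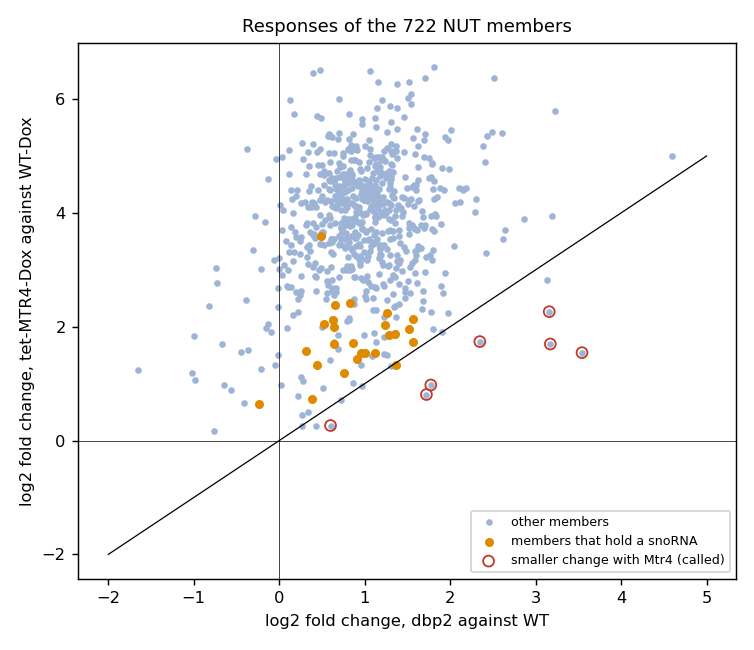
Log2 fold change in tet-MTR4-Dox against WT-Dox (y) and in dbp2 against WT (x) for the 722 NUT members, with the line of equal change. Members that hold a snoRNA are orange, and red circles mark the 7 members with a smaller change when Mtr4 was shut off. All points lie above 0 on the y axis, between 0.16 and 6.56.

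The smallest rises after Mtr4 shut-off included members that carry the reads of a protein-coding gene. In 8 members the reads differed from those of a gene row by at most 10% in each library. These rows give the gene's response, and whether any read belongs to a separate NUT cannot be told from the table. NUT0103 and RPL31A, which encodes a protein of the large ribosomal subunit (YDL075W, chromosome IV, 322226 to 322988), are 1 such pair. NUT0103 had 12.9 and 12.2 (WT-Dox) and 15.5 and 14.5 (tet-MTR4-Dox), a 1.20-fold rise on the spike-in scale (limma adjusted p = 0.00090) that was a fall after rescaling (log2 -0.60).

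NUT1166 and URA2, which encodes the first enzyme of pyrimidine synthesis (YJL130C, chromosome X, 165723 to 172367), gave a 1.58-fold rise, also reversed by rescaling (log2 -0.19). In dbp2 NUT1166 went from 1.93 and 1.78 in WT to 1.42 and 1.38, a change to 0.753 of its WT level. NUT0422 and URA8, a CTP synthase gene, gave a 3.96-fold rise with Mtr4 shut off and a log2 change of -0.15 ± 0.09 in dbp2 (limma adjusted p = 0.15). The pairs of NUT0514 with PDC5 (pyruvate decarboxylase), NUT1077 with SNG1, NUT0894 with STP4, NUT1068 with MEP1 (an ammonium permease) and NUT1180 with TAD2 (a subunit of the tRNA adenosine deaminase) gave rises of 1.89- to 7.56-fold in the gene rows. A further 11 members carried the reads of an XUT and 1 those of a CUT. In 482 members at least 1 library had under 20 reads, and those were not searched for equal rows. Reads of a NUT and of a gene on the other strand cannot be told apart here, because the strand setting of the counting is not given in the sources used here.

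The ratio that chose the members had a median of 2.35 (log2 1.23), against 3.74 for protein-coding genes. It was under 1 in 39 members, between 1 and 2 in 221 and between 2 and 4 in 462. The 0.006 added to each mean matters at these levels: without it 202 members would be at 4 or more, 194 of them with a WT mean under 0.034. The lowest ratio was 0.508 in NUT1428, which holds snR36, with 1.21 and 1.37 (WT) and 0.744 and 0.564 (xrn1). NUT0186 was at 0.638, NUT1503 at 0.653 and NUT0348, which holds snR32, at 0.671. NUT0186 rose 7.31-fold with Mtr4 shut off, from 1.19 and 1.29 to 9.60 and 8.58.

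Just inside the limit were NUT1012 (3.975), NUT1148 (3.973) and NUT0050 (3.969), and just outside were NUT1182 (4.00004), NUT1153 (4.001) and NUT0546 (4.01). NUT1012 had 0.00930 and 0.0115 (WT), 0.0550 and 0.0633 (xrn1) and 0.195 and 0.196 (tet-MTR4-Dox). NUT1182 had 0.00923 and 0.00788, 0.0568 and 0.0477, and 0.266 and 0.230 in the same groups. NUT1012 and NUT1182 thus had like densities in WT and xrn1. In WT the other rows just outside were higher, at 0.0179 and 0.0234 (NUT1153) and 0.0230 and 0.0175 (NUT0546).

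Genes of transcription termination and of nuclear RNA decay were read from 2 lists. The termination list is broader than NRD1, NAB3 and SEN1 and also holds RAT1, RAI1, RTT103, STO1 and CBC2. Of its 16 genes, 16 were called higher with Mtr4 shut off on the spike-in scale. After rescaling 10 were higher and 3 lower. Of all rows 91.3% were higher and, rescaled, 62.1% were higher and 24.7% lower. NRD1, which encodes the RNA-binding protein Nrd1, had 0.527 and 0.502 (WT-Dox) and 5.58 and 5.57 (tet-MTR4-Dox), a 10.7-fold rise (limma adjusted p = 3.4e-11). REF2, of the cleavage and polyadenylation machinery, rose 4.37-fold and the phosphatase gene SSU72 rose 3.92-fold. Of 20 genes of TRAMP and the nuclear exosome, 19 were higher and 1, MTR4, was lower. AIR2, which encodes a zinc-knuckle protein of TRAMP, rose 3.39-fold, and MPP6, which encodes an exosome cofactor, 3.13-fold. After rescaling 11 were higher and 2 lower. In dbp2, 12 of the 16 termination genes were higher and 0 lower, which became 5 and 8 after rescaling. Of the 20 TRAMP and exosome genes 19 were higher and 0 lower, which became 10 and 6. Of all rows 84.8% were higher and 5.31% lower in dbp2, and 43.3% and 28.7% after rescaling.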

How the data were processed

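RNA of 10 libraries was sequenced, 5 groups of 2. The deposited table gives normalized densities, used here as signal, and 5 columns of group means. Per the submitters' processing notes, the tools were DESeq2, featureCounts 2.0.0, HISAT2 2.2.0 and Trim Galore, with the R64 genome, with no role stated for each. In the deposited signal, all 10832 rows above 0 came out as whole reads times a library factor over row length, at a tolerance of 1e-06. The factors follow the ERCC RNAs, which is inferred from the values.

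The log2 of density plus 0.006 was fitted with limma 3.58.1 (trend, R 4.3.3) for the 9680 yeast rows with a mean of at least 0.034, with a coefficient per group over the 10 libraries, 5 residual and 4.83 prior degrees of freedom. An SE thus pools the spread of all groups. A fold change understates changes of low rows. Calls use Benjamini-Hochberg adjusted p under 0.05, two-sided, over all rows. Counting error limits rows of few reads. Whole reads were recovered, and limma with voom weights was run on them as an alternative. No other count test was run. The method was tested on simulated data.

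Members that carry other rows' reads were found by equal reads (at most 10% apart, at least 20 reads) or, for 73 snoRNA rows of at least 50 reads, by at most 10% of control reads outside. Gene names, snoRNA classes and positions came from RefSeq for R64. The rest of a snoRNA row was added to the same fit, a step chosen after seeing the data. The rule for named rows was the 10 largest rises and 6 largest falls, of which there were none (Mtr4), 8 and 6 (Dbp2), 4 each way for the difference, the 6 densest members, the 4 lowest ratios, 3 each side of the limit, up to 6 members with gene and 6 with snoRNA reads, and up to 3 genes per list. The members, lists and rules were chosen with earlier results of these data known. Software: matplotlib 3.10.9, scipy 1.17.1, pandas 2.3.3, numpy 2.4.6 and Python 3.11.15.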

Additional observations from a re-analysis of the deposited data

How the results depend on the processing

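With every alternative run, the median change of the members kept its sign in each comparison. For tet-MTR4-Dox the median log2 change was 4.37 and 2.88 with a pseudocount 4 times smaller and larger and 4.11 at a mean density of at least 0.1. It was 3.38 rescaled on the median protein-coding gene, 2.59 rescaled on the median feature and 4.52 with voom. The 677 members with no row of shared reads found include NUT1510, and 482 members were not searched for equal rows. In these 677 members the median was 3.98. It was 2.16 with a WT-Dox mean of at least 0.034. With that mean over the other 8 libraries, a limit chosen after seeing the data, it was 3.05. The members higher were 252, 131 and 264 where the density limits leave fewer members, and those lower were 7 and 33 with the 2 rescalings. For dbp2 the medians in the same order were 1.19, 0.56, 0.997, 0.36, 0.16, 1.27, 0.87 (WT mean) and 1.02 (over 8 libraries). Higher were 219 (density 0.1), 295 and 194 (rescaled on genes and on features), 116 and 221, and lower were 78 and 128 when rescaled. For the difference the medians were 3.13 and 2.35 (pseudocounts), 2.39 (features), 3.19 (voom), 1.51 (WT-Dox mean) and 2.12 (over 8 libraries). Larger were 232 (density 0.1), 109 (WT-Dox mean) and 236 (over 8 libraries). Smaller were 4 (density 0.1), 23 (features), 3 (WT-Dox mean) and 7 (over 8 libraries).

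Leaving out 1 library gave 720 to 722 higher and 0 lower (tet-MTR4-Dox, median 3.83 to 3.94), 569 to 592 higher and 14 to 15 lower (dbp2, 0.91 to 0.99), and 685 to 694 larger and 7 to 9 smaller (2.88 to 2.98). The replicate block gave 722 higher for tet-MTR4-Dox and 617 higher and 16 lower for dbp2. The numbers do not pair the samples: replicate differences of 2 groups correlated by -0.079 to 0.045 across rows.

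Of 938 recomputed values of 70 named results, 895 kept direction and call, 14 lost the call, 2 gained it and 27 reversed. Rescaling on features reversed, with Mtr4 shut off, NUT1169 (-0.18), NUT0490 (-0.14), NUT1503 (-0.64), NUT0103 (-1.47), NUT1166 (-1.06), NUT1077 (-0.36), NUT0514 (-0.046) and NUT0891 (-0.025), and rescaling on genes NUT0103 (-0.60) and NUT1166 (-0.19). In dbp2 it reversed, on genes and features, NUT0490 (-0.54, -0.79), NUT0186 (-0.42, -0.67), NUT1503 (-0.78, -1.03), NUT0348 (-0.23, -0.48), NUT0103 (-0.42, -0.67), NUT0514 (-0.13, -0.37) and NUT0891 (-0.21, -0.46), and on features NUT1077 (-0.10). NUT1503, not called in dbp2, ranged from -0.068 (without dbp2 replicate 2) to 0.105 (without dbp2 replicate 1), with -0.054 without WT replicate 2. The cause of these moves was not tested. Rows of few control reads, 15 to 24 at the median, limit the precision of each fold change.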
